A study of Mus musculus with 4 samples.

Results

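Dendritic cell subset markers are 8 genes that immunologists use to recognise dendritic cells and their subsets, namely Itgax, Flt3, Zbtb46, Clec9a, Xcr1, Batf3, Siglech and Ccr9. They were taken by name, through the RefSeq accession of each array probe, from 20284 genes that could be named on the array. Single-colour microarrays read the RNA of whole spleens from ICR mice, an outbred stock, at an age of 5 days. Dams of the exposed groups had received carbon black nanoparticles (CB-NP) into the nose at 95 microg/kg on gestational days 5 and 9. Dams of the control groups had received distilled water at 1 mL/kg at the same times. The 4 groups were control males, exposed (CB-NP) males, control females and exposed females among the offspring, and each was 1 pool of total RNA read on 1 array. With 1 pool a group, no difference between 2 pools has a replicate spread, and the number of animals and litters behind each pool is not given in the sources used here. Whole spleen RNA mixes all cell types, and fewer cells of a type cannot be told apart from less RNA per cell.

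Dendritic cells take up antigen and show it to T cells, and the spleen holds conventional and plasmacytoid kinds. Conventional dendritic cells of type 1 cross-present antigen from dying cells to CD8 T cells, those of type 2 mainly prime CD4 T cells, and plasmacytoid dendritic cells are known for producing type I interferon. All of them grow from bone marrow progenitors that respond to the cytokine Flt3 ligand. Several of the genes are made by other cells too. Itgax is also made by some macrophages and natural killer cells, Flt3 by early haematopoietic progenitors, Zbtb46 by endothelium and erythroid progenitors, and Ccr9 by some T cells.

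All 4 arrays lay on 1 slide, so array position and group cannot be told apart. Between 57.3% and 59.0% of the non-control spots of an array were well above background, a call of the scanner software, and no spot was saturated. Xist was well above background only in the pools labelled female, and the Y-linked genes Ddx3y, Eif2s3y and Uty only in those labelled male. Genes of cells that fill a spleen were measured on all 4 arrays, namely 11 of 11 B cell genes, 12 of 12 T cell genes, 12 of 12 endothelial genes and 10 of 10 erythroid genes with a probe. Pancreatic acinar enzymes, which belong to a neighbouring organ, were lower in both CB-NP pools. Their summed level was 15.9 in control and 1.99 in exposed males, and 11.8 in control and 2.02 in exposed females. This sum ran over the 8 enzymes well above background on all arrays and counts multiples of each array's 75th percentile signal. The linear model described below (limma) called 6 of 17 such enzymes lower. The part of that tissue in the results below was not tested.

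Levels below are log2 signals minus the 75th percentile of the same array, so a level of 0 is the signal of a fairly bright spot, and a difference of 1 is 2-fold. Each error is the scanner's own, for 1 spot where a level is given and combined over 2 spots where a difference is given. It covers the reading of the spots and not the variation between animals, litters or labelling reactions. Bright spots shared 1 value, 0.144 for a level and 0.204 for a difference. For them, 1.96 scanner errors is a fixed cut and not a precision measured for each spot. Each interval runs 1.96 scanner errors to either side. Of the 8 members, 7 had a spot well above background on each of the 4 arrays, and Xcr1 on none. Flt3, Zbtb46 and Siglech had 2 probes each and the other members had 1. The brighter probe stands for the gene, and the dimmer one is given beside it.

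Among the 7 measured members, no gene was at least 2-fold different between the CB-NP and control pools in either sex. Over all genes, 0.86% of 14186 were in males and 1.09% of 14075 were in females. Zbtb46 was lower with CB-NP in both sexes, and its male difference of -0.80 was the farthest from 0 among the members, while in females Clec9a (0.50) lay about as far from 0 as Zbtb46 (-0.51). Itgax and Flt3 were slightly higher with CB-NP in males and slightly lower in females, by less than 1.96 scanner errors. The members' median difference was 0.08 in males, with 5 of 7 above 0, and -0.13 in females, with 3 of 7 above 0. Medians over all genes were -0.02 and -0.04. Differences beyond 1.96 scanner errors held for 1 member of 7 in males and for 2 in females, beside 8.56% and 14.4% of all genes. These were Zbtb46 in both sexes and Clec9a in females. Of the 7, 3 were above 0 in both sexes (Clec9a, Siglech and, at 0.00 in females, Ccr9), where 27.8% of genes were, and 2 were below 0 in both, beside 39.4% of genes. By at least 0.5 in both sexes, 0 members were higher, beside 1.51% of genes, and 1 was lower, beside 0.581%.

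**Figure D1:**
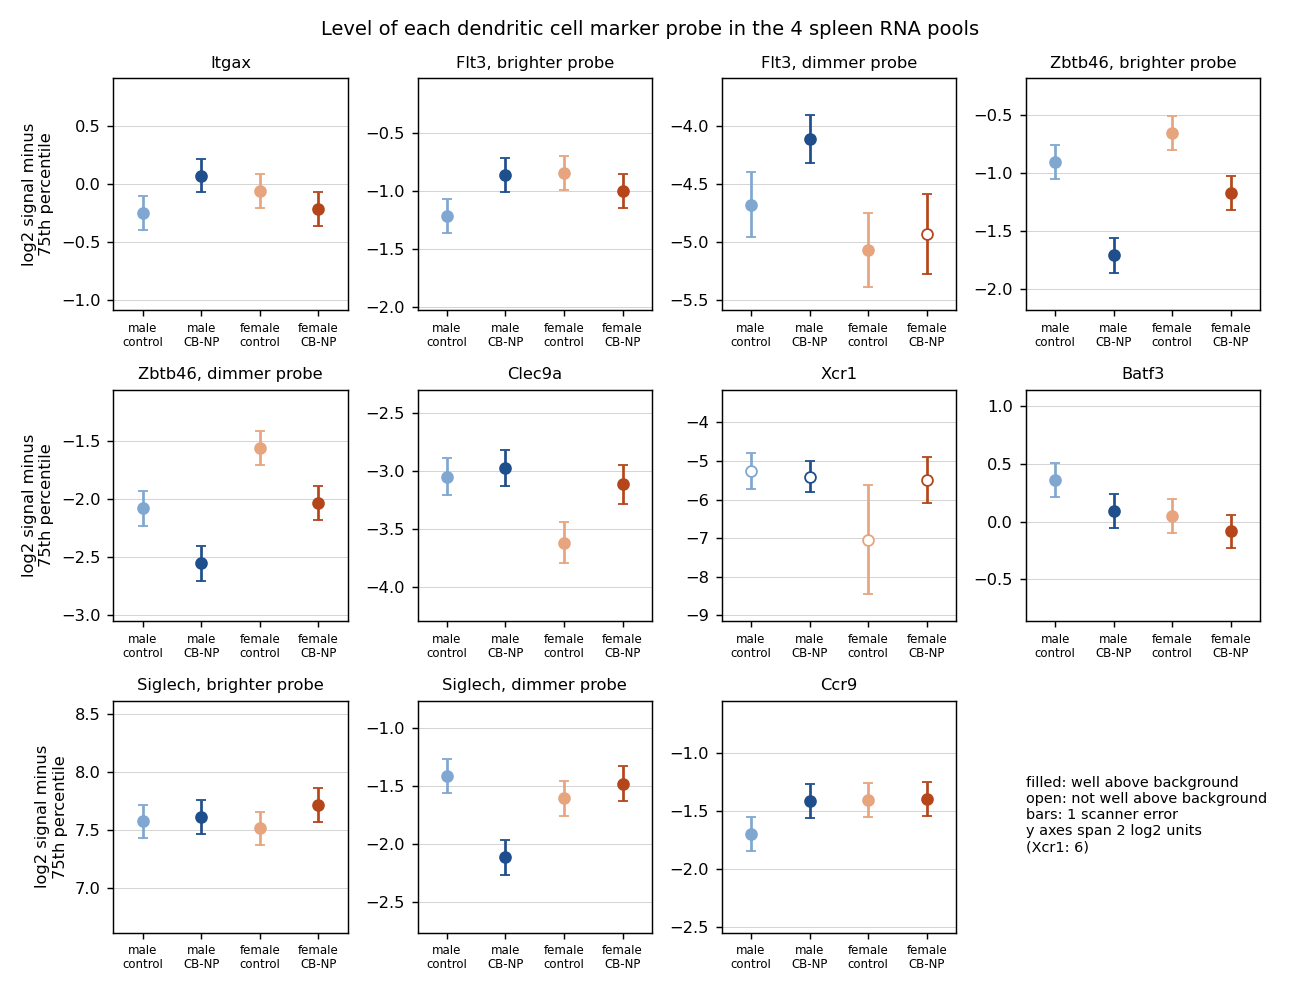
Level of every member probe in the 4 pools, as log2 signal minus the 75th percentile of the array, with bars of 1 scanner error and open points where a spot was not well above background. Both Zbtb46 probes sit lowest in the male CB-NP pool and highest in the female control pool, while Ccr9 and the brighter Siglech probe span no more than 0.30.

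Zbtb46 is a zinc finger transcription factor used as a lineage marker of conventional dendritic cells, and Batf3 is a transcription factor that type 1 conventional dendritic cells need. They were the only members lower with CB-NP in both sexes by their main probe, a pattern shown by 39.4% of 13933 genes. The 250 bases before the listed start of each gene are printed here because these 2 members share that direction, with matches to searched motifs in capitals. The sequences are from RefSeq, build GRCm38.p6.
Zbtb46 (chr2:181424389-181424638, minus strand): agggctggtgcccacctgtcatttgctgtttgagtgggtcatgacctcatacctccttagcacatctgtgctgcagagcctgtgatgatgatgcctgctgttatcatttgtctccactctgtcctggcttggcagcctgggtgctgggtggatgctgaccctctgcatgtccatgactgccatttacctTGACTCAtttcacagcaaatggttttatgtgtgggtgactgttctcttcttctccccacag
Batf3 (chr1:191098164-191098413, plus strand): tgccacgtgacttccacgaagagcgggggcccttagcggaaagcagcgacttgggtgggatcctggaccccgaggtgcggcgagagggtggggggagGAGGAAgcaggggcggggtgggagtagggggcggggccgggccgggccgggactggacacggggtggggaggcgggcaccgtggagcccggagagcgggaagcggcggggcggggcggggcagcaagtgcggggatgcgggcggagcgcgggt
The listed start of Zbtb46 lies 68874 bases inside the annotated span of the gene, so this stretch lies within the gene. It may not be a promoter, and whether a transcript starts there was not tested. The capitals in the Zbtb46 stretch are a match to the AP-1 motif TGANTCA that begins 61 bases before the start. This motif, on either strand, was found in 6.75% of 32851 such stretches. The Itgax stretch, not printed here, also held it, 56 bases before the start, and Itgax was not lower in both sexes. In the Batf3 stretch they are a match to the PU.1 core GAGGAA that begins 153 bases before the start, and 23.3% of stretches hold it. The core of the interferon-stimulated response element, searched as a pair of GAAA parted by any 2 bases, had no match in these 2 stretches and was found in 2.98% of all. The Batf3 stretch was rich in G and C, at 76.0%, against 51.6% for Zbtb46. No motif matches overlapped, and a match describes letters and not binding.

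The brighter Zbtb46 probe gave levels of -0.90 in control males, -1.71 in exposed males, -0.65 in control females and -1.17 in exposed females. Both CB-NP pools were thus below both control pools. In males the difference was -0.80 (scanner error 0.21, interval -1.21 to -0.40), which is 1.75-fold lower, and 0.86% of genes had a lower value. In females it was -0.51 (scanner error 0.21, interval -0.92 to -0.11), which is 1.43-fold lower, and 3.61% of genes had a lower value. Counting both directions, 1.83% of genes in males and 9.45% in females lay at least as far from 0.

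The dimmer Zbtb46 probe read -2.08 and -2.56 in the male control and male CB-NP pools, and -1.56 and -2.04 in the female control and female CB-NP pools. Its differences of -0.47 in males and -0.48 in females had the direction of the brighter probe and also exceeded 1.96 scanner errors. The pools of this probe overlapped, since the female CB-NP level lay 0.05 above that of the male control. Both probes were lower with CB-NP in each sex under all 7 normalizations, with the brighter one between -0.81 and -0.59 in males and between -0.63 and -0.40 in females. At its weakest over those settings, the dimmer probe was at -0.23 in males and -0.28 in females. Of 13933 genes, 81 (0.581%) were lower by at least 0.5 in both sexes, as the brighter probe was.

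Zbtb46 was also higher in female than in male pools, by 0.25 among controls and 0.54 among CB-NP pools by the brighter probe, and by 0.52 in each by the dimmer probe. After normexp, a model-based background correction, and quantile normalization, the differences between the CB-NP pools were 0.36 and 0.29. None of the 7 members was at least 2-fold different between the sexes in either treatment, beside 0.777% of all genes among controls and 0.659% among CB-NP pools. Beyond 1.96 scanner errors was 1 of 7 members in each, Clec9a among controls and Zbtb46 among CB-NP pools, beside 7.97% and 5.27% of genes.

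A limma model with treatment and sex as terms, with 1 residual degree of freedom, was fitted to 14502 genes. It gave Zbtb46 a shared CB-NP difference of -0.66 (SE 0.12), lower in 2 of 2 pairs, with an unadjusted p of 0.00788 and an adjusted p of 0.310 by Benjamini-Hochberg. Of the 7 members, limma called 0 at an adjusted p under 0.05 and 1 at an unadjusted p under 0.05. Over all genes it called 0.0827%, and 13.8% had an unadjusted p under 0.05. The adjusted limma p of Zbtb46 ran from 0.0047 with normexp background correction to 0.705 without a detection filter, and only the former setting called it. For the sex difference shared by the treatments, limma called 0 of 7 members, beside 0.0276% of all genes. At an unadjusted p under 0.05 it called 1 of 7, beside 5.78% of genes. That member was Zbtb46, at 0.39 higher in females (SE 0.12), with an adjusted p of 0.856 in limma.

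Batf3 read 0.36 in control males, 0.09 in exposed males, 0.05 in control females and -0.08 in exposed females. The male control stood highest and the other pools lay close together, with no neighbouring pair in this order apart by more than 1.96 scanner errors. The CB-NP difference was -0.27 (interval -0.67 to 0.13) in males and -0.13 (interval -0.53 to 0.27) in females, below 0 under all 7 normalizations. Its shared difference in limma was -0.20 (SE 0.10, adjusted p 0.412).

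**Figure D2:**
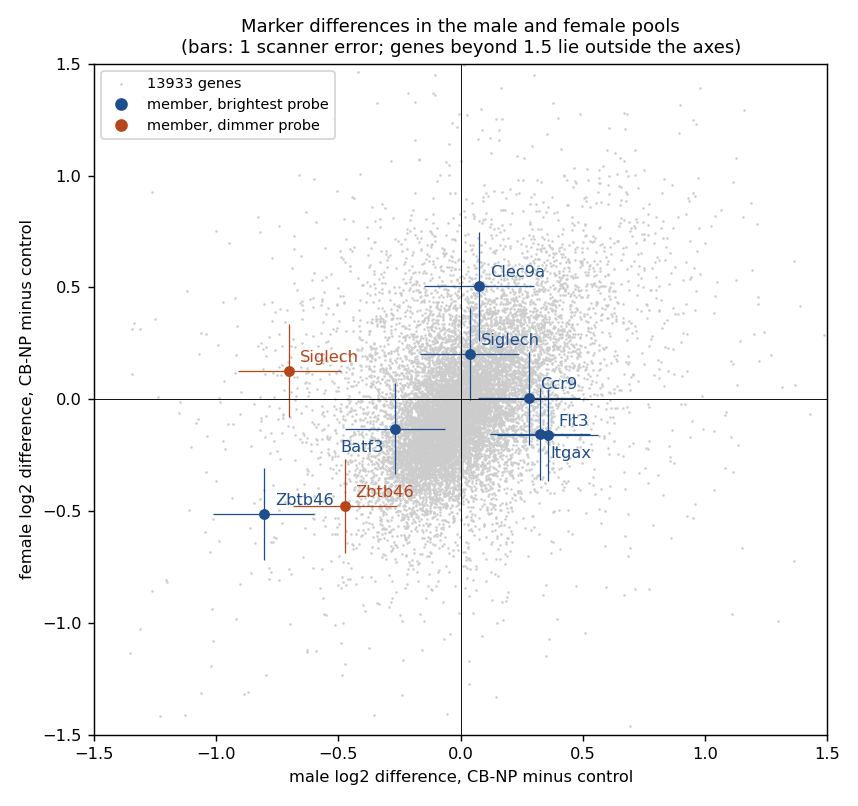
Log2 difference of CB-NP minus control in males (horizontal) and females (vertical) for every member probe well above background on all arrays, with bars of 1 scanner error, over 13933 genes in grey. The brighter Zbtb46 probe lies at -0.80 and -0.51, Clec9a at 0.08 and 0.50, and the 2 Siglech probes lie apart in males.

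The surface receptors shared by dendritic cells came next. Itgax encodes CD11c, an integrin chain used to gate mouse dendritic cells. Its levels were -0.25 in control males, 0.07 in exposed males, -0.06 in control females and -0.22 in exposed females. Male CB-NP stood highest, and no neighbours in the order differed by more than 1.96 scanner errors. The CB-NP difference was 0.32 (interval -0.08 to 0.73) in males and -0.16 (interval -0.56 to 0.25) in females. Flt3 encodes the receptor tyrosine kinase for Flt3 ligand. The brighter Flt3 probe read -1.22 in control males, -0.86 in exposed males, -0.85 in control females and -1.005 in exposed females. The male control was lowest, and neighbours again differed by less than 1.96 scanner errors. The CB-NP difference of this probe was 0.36 (interval -0.05 to 0.76) in males and -0.16 (interval -0.56 to 0.24) in females.

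The dimmer Flt3 probe was near the detection limit, with signals of 13.1, 19.7 and 11.7 intensity units in the male control, male CB-NP and female control pools. In the female CB-NP pool it was not well above background, at 10.4 units. Its male difference of 0.57 (interval -0.11 to 1.24) had the sign of the brighter probe but shrank to 0.10 with normexp background correction. Between the CB-NP pools its female minus male difference was -0.82 (interval -1.60 to -0.04), and -0.05 with normexp. In the controls the 2 probes of Flt3 had opposite sex differences, 0.37 and -0.39 for female minus male. The adjusted p for a shared CB-NP difference in limma was 0.769 for Flt3 (0.10, SE 0.16) and 0.796 for Itgax (0.08, SE 0.16). Opposite directions in the sexes were seen in 32.8% of 13933 genes, and whether the sexes differed in response was not tested, since the design leaves no degree of freedom for it.

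The surface receptors of type 1 conventional dendritic cells, Clec9a and Xcr1, were dim. Clec9a encodes DNGR-1, a lectin receptor that senses filaments of actin exposed by dead cells. It read -3.05 in control males, -2.97 in exposed males, -3.62 in control females and -3.11 in exposed females. The female control stood below the other 3 pools, which lay within 0.14 of each other. Against the female control, the female CB-NP pool was higher by 0.50 (interval 0.03 to 0.98), and the male control was higher by 0.57 (interval 0.10 to 1.04). In males the CB-NP difference was 0.08 (interval -0.37 to 0.52). Processed signals of Clec9a were only 31.9 to 43.3 intensity units, and both differences from the female control shrank to 0.20 when normexp was followed by quantile normalization. Limma gave a shared CB-NP difference of 0.29 (SE 0.15, adjusted p 0.422). Xcr1 encodes the receptor for the chemokine Xcl1. Its signals were 8.71, 7.97, 2.97 and 7.05 units in control males, exposed males, control females and exposed females, not well above background in any pool, so no fold is given.

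The markers of plasmacytoid dendritic cells did not give a common picture. Siglech encodes Siglec-H, a lectin used to identify mouse plasmacytoid dendritic cells, and its 2 probes disagreed in level and, for CB-NP in males, in direction. The brighter Siglech probe had processed signals of 63700, 66300, 71500 and 66500 units in control males, exposed males, control females and exposed females. Only 0.914% of all probes were brighter. The dimmer Siglech probe had 126, 78.7, 129 and 114 units in the same order, well above background in every pool. The mean signals differed 599-fold, and 22 of 3591 genes with several measured probes (0.613%) had probes at least that far apart. By the brighter probe, the levels were 7.57, 7.61, 7.51 and 7.71, and all pools lay within 0.20. Its CB-NP difference was 0.04 in males (interval -0.36 to 0.44) and 0.20 in females (interval -0.20 to 0.60). By the dimmer probe the levels were -1.41, -2.11, -1.60 and -1.48, with the male CB-NP pool alone below the rest. That difference was -0.70 in males (interval -1.11 to -0.29), 1.62-fold lower, and 0.13 in females (interval -0.28 to 0.54).

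The gap between the 2 Siglech probes in the male difference was 0.74, and 2.36% of 3683 genes with several measured probes had a gap at least as large. In females the gap was 0.07. The deposited files used here hold no probe sequences, so which probe follows Siglech transcripts was not tested. The mean of both probes put the male difference at -0.33, and the dimmer probe alone shrank to -0.40 at the weakest of 7 normalizations. In limma the brighter probe gave 0.12 (SE 0.10, adjusted p 0.563).

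Ccr9 encodes the receptor for the chemokine Ccl25, which guides cells to the gut and the thymus, and is carried by plasmacytoid dendritic cells. It read -1.70 in control males, -1.42 in exposed males, -1.41 in control females and -1.40 in exposed females. The male control was lowest and the other 3 pools lay within 0.02. The CB-NP difference was 0.28 (interval -0.13 to 0.69) in males and 0.00 in females, where 4 of the alternatives turned it below 0 (lowest -0.11). Its shared difference in limma was 0.14 (SE 0.12, adjusted p 0.557).

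**Figure D3:**
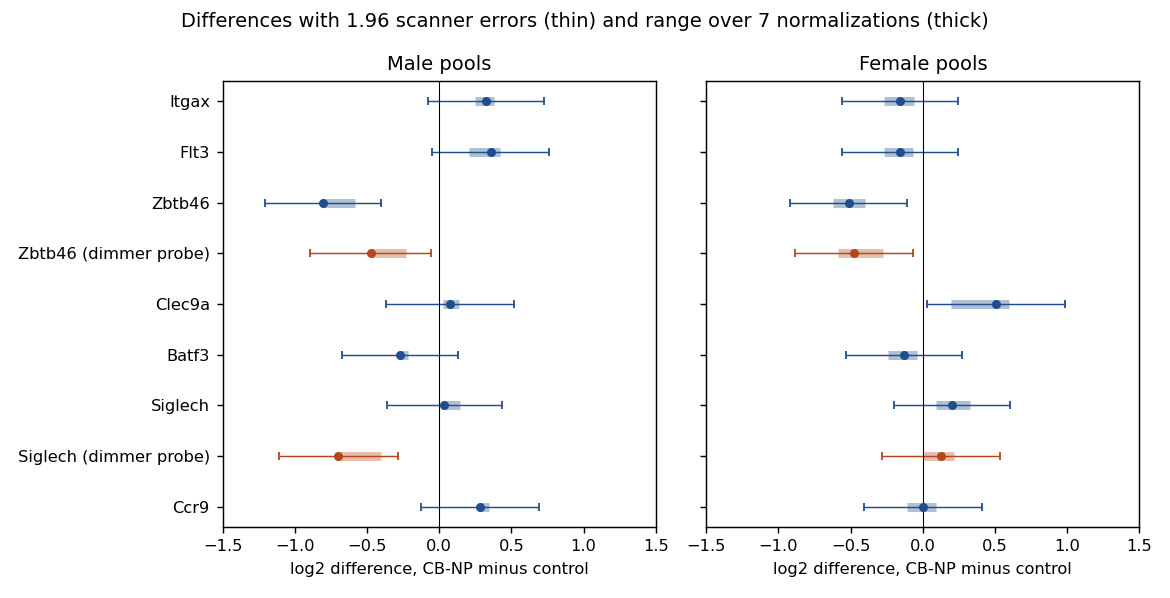
CB-NP minus control log2 difference of each member probe well above background on all arrays, in male and female pools, with thin bars of 1.96 scanner errors and thick bars for the range over 7 normalizations. Intervals that leave out 0 belong to both Zbtb46 probes in each sex, Clec9a in females and the dimmer Siglech probe in males.

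Genes of the ligands were measured beside their receptors. Flt3l, the Flt3 ligand gene, differed by -0.03 in males and -0.18 in females. Xcl1, the Xcr1 ligand, was dim and differed by -0.06 and 0.18, and Ccl25 by 0.11 and -0.05. A second Ccl25 probe read 0.35 and 0.30, the opposite sign in females. Actb, whose product is the actin that the Clec9a receptor senses in filament form, differed by 0.05 and 0.26. Among growth factor and receptor genes, Csf2ra, a GM-CSF receptor chain, was at 0.19 and -0.20, and Csf1r, the M-CSF receptor gene, at 0.22 and 0.08, with other Csf1r probes at -0.15 in females. That list had 11 measured genes with medians of 0.04 and 0.08. None of these genes passed the limma threshold.

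Other genes enriched in conventional dendritic cells were mostly higher with CB-NP, unlike Zbtb46. Of these, 14 of 15 measured genes were above 0 in males (median 0.56) and 14 of 14 in females (median 0.50), while 45.2% and 43.3% of all genes were above 0. H2-DMb2, a chain of the peptide-loading factor for MHC class II, was 1.04 and 0.82 higher. Napsa, an aspartic protease gene, was 0.56 and 0.43 higher. Cbfa2t3, a transcriptional corepressor gene, was 0.33 and 0.23 higher, but another of its probes read -0.34 and -0.79. Several genes of this list are also active in B cells. The 11 B cell genes had a median of 0.68 in each sex, with 11 and 10 above 0, and a summed level of 70.4 in control males, 116 in exposed males, 66.3 in control females and 107 in exposed females. The part of B cells in the difference of the conventional dendritic cell genes was not tested. None of the 15 passed in limma.

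The subset lists were more mixed. For type 1 conventional dendritic cells, 10 of 13 other genes were above 0 in males (median 0.30) and 6 of 13 in females (median -0.03). Wdfy4, needed for cross-presentation, was 0.49 and 0.61 higher, and 0.46 and 0.91 higher by another probe. The part of B cells in the Wdfy4 values was not tested. Cd24a, a surface glycoprotein gene that many cells use, was at -0.06 and -0.15. The type 2 list had medians of 0.12 and 0.19, with 12 and 14 of 16 genes above 0. In it, Mgl2, a lectin gene, was at 0.18 and -0.04. Itgam, which encodes CD11b, was at 0.10 and 0.33, although its other 2 probes read -0.68 and -0.64 in females. For plasmacytoid dendritic cells, 12 of 16 other genes were above 0 in males (median 0.07) and 10 of 16 in females (median 0.04). Klk1, a kallikrein gene, was 1.21 and 0.81 on the log2 scale below the controls at a dim signal, where the weakest values over 7 normalizations were -0.40 and -0.18. The summed pancreatic acinar enzymes were also lower in both CB-NP pools, and the part of that tissue in the Klk1 values was not tested. Ly6d (0.58 and 0.30) and Blnk (0.74 and 0.79), both also active in B cells, were higher. Maturation and migration genes had medians of 0.32 and 0.21, with the homing receptor gene Ccr7 at 0.47 and 0.66 and the chemokine gene Ccl5 at 0.35 and 0.23. B cell genes had medians of 0.68 in each sex and T cell genes of 0.12 and 0.58. The part of B and T cells in the maturation and migration values was not tested. Limma called no gene of these 4 lists.

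A few transcription factors of these lineages were singled out after their values were seen. Irf8, needed for type 1 conventional dendritic cells, was 0.47 and 0.29 higher, and Irf4, active in the type 2 subset, 0.58 and 0.51. Spib, a factor of plasmacytoid dendritic cells and B cells, was 0.80 and 0.55 higher, and Tcf4, which specifies the plasmacytoid lineage, was at 0.05 and 0.20. By another probe Tcf4 was at 0.39 and 0.31. Id2 was at -0.20 and -0.03 and Nfil3 at 0.25 and -0.42, both of them needed for type 1 dendritic cells. Among other factors in the subset lists, Bcl11a was at 0.13 and 0.03, Zeb2 at -0.05 and 0.06 and Klf4 at 0.14 and -0.07. Irf7 was at 0.06 and 0.42, and Relb at 0.44 and 0.33. Other probes read 0.40 and 0.25 for Bcl11a, -0.05 and -0.14 for Zeb2, and 0.40 and 0.17 for Relb. Runx2 was too dim to compare. Irf4, Irf8 and Spib are B cell factors too.

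**Figure D4:**
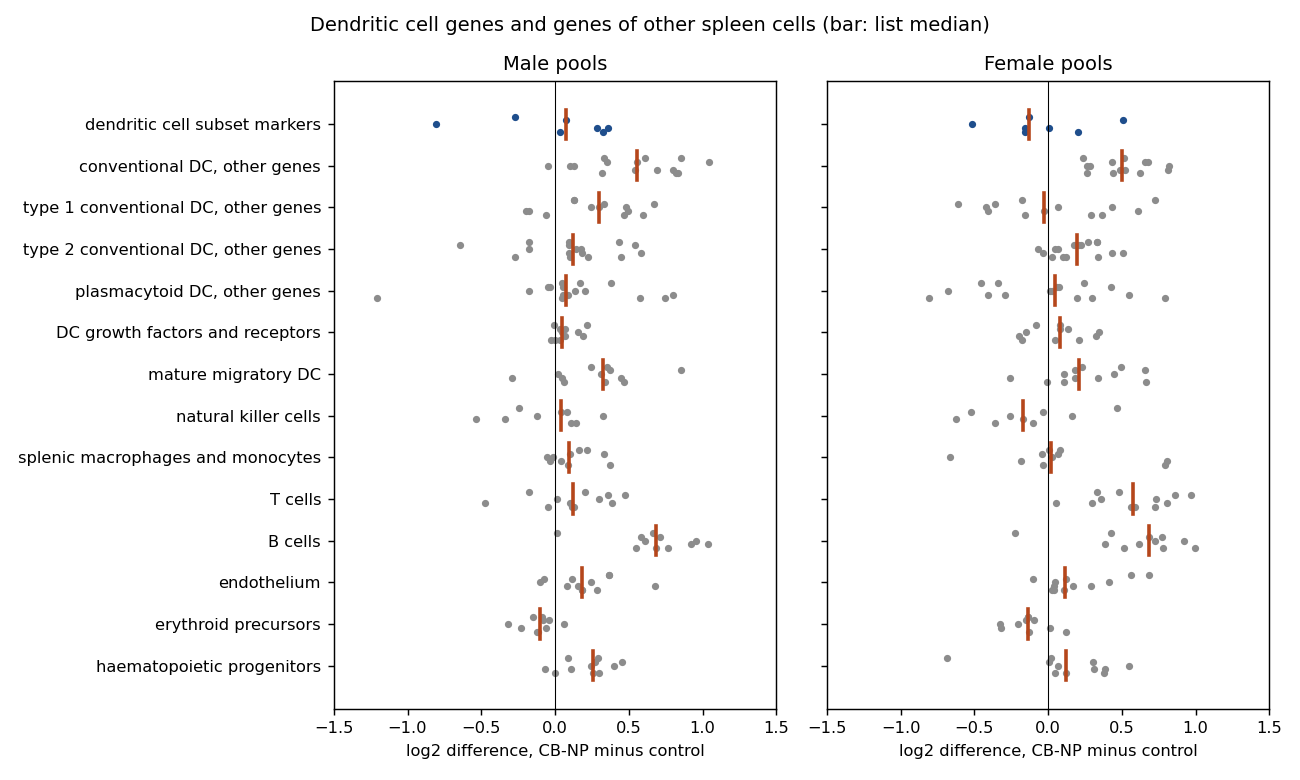
Log2 difference of CB-NP minus control for the measured genes of 14 lists, 1 point per gene, with the list median as a bar, in male and female pools. The dendritic cell subset markers spread on both sides of 0, while the B cell medians lie at 0.68 and those of other conventional dendritic cell genes at 0.56 and 0.50.

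Other cells that make the members differed as follows. Endothelial genes, a second home of Zbtb46, had a median of 0.18 in males, with 10 of 12 genes above 0, and of 0.11 in females, with 11 of 12, and a summed level of 106, 109, 101 and 112 in control males, exposed males, control females and exposed females. The endothelial gene Egfl7 was at -0.08 and 0.12 and Plvap at 0.08 and 0.04, with another Plvap probe at 0.11 and -0.30. Erythroid precursor genes, the third, had medians of -0.10 and -0.14, with 1 and 2 of 10 above 0, and summed levels of 1042, 938, 991 and 974. The part of erythroid cells in the Zbtb46 difference was not tested. Slc4a1, the red cell anion exchanger gene, was at -0.23 and 0.01, and Alas2, which starts haem synthesis there, at -0.12 and 0.12.

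Macrophage and monocyte genes, beside Itgax, had medians of 0.09 and 0.02 and summed levels of 131, 142, 120 and 142, with Vsig4 not well above background on any array. In females 6 of the 10 measured genes were above 0 and 4 below. Marco, 1 of the 2 brightest and so with a large part in the sum, was at -0.03 in males and 0.81 in females. Natural killer genes had medians of 0.04 and -0.17 and summed levels of 13.3, 13.8, 15.1 and 12.5, with Klrk1 and Klre1 not well above background. The part of either cell type in the Itgax values was not tested. Progenitor genes, beside Flt3, had medians of 0.26 and 0.12, with Cd34 at 0.11 and 0.38, and summed levels of 28.8, 32.7, 28.3 and 32.7. T cell genes, beside Ccr9, had medians of 0.12 and 0.58, with 9 and 12 of 12 above 0, and summed levels of 30.1, 31.8, 29.6 and 41.2. The part of T cells in the Ccr9 values was not tested.

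The genes whose profile over the 4 pools lay nearest to a member were sought among 13932 others, for the 2 measured members whose main probe spanned at least 0.5, by the root mean square distance of mean-centred log2 levels. Nearest to Zbtb46 were Espn, an actin-bundling protein gene, at 0.063, 1700088E04Rik at 0.069 and the histone gene H2ac6 at 0.079. H2ac6 was 0.76 lower in males and 0.61 lower in females. Nearest to Clec9a were Zup1 at 0.017, the Wnt co-receptor gene Lrp6 at 0.020 and Stau2, which encodes an RNA-binding protein, at 0.024. With 4 pools, such nearness is a description.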

How the data were processed

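Per the file headers, the authors read single-colour (Cy3) Agilent arrays, drawn on mm9, with Agilent Feature Extraction 10.10.1.1. Their deposited processed signal is an intensity, background-subtracted and detrended within each array but not scaled between arrays. The deposited value table equalled it times 1 constant per array (3.10, 3.18, 2.64 and 3.49), with target unstated and column medians of 75.2, 76.1, 68.9 and 79.4. Per the labels, RNA was pooled within each group.

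Spots marked as outliers were left out, repeated spots of a probe were averaged, and log2 signals were centred on the 75th percentile of non-control spots. Of 55677 probes, 26761 matched 20284 genes by RefSeq accession (assembly GRCm38.p6). A gene was its probe with the highest mean signal. Pairs of arrays were compared where both spots were well above background, with no test. A limma 3.58.1 model (R 4.3.3) of treatment and sex used the genes that passed the scanner's background call on 2 or more arrays, adjusted by Benjamini-Hochberg with a threshold of 0.05, and was tested on simulated data. A rule set the genes to name. It took all members, from each list those at least 2-fold different (up to 4) and the 2 brightest, 3 nearest profiles, and 3 ligands. Some of these were left unnamed, among them B cell, T cell, natural killer, progenitor and pancreatic genes. The transcription factors singled out after their values were seen, and those given beside them, lay outside the rule. Members, lists, motifs and rules were chosen with earlier results of these data known. No probe was found for 10 entries of the lists.

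Alternatives were median centring, quantile normalization, cyclic loess, the authors' scaling, normexp with offset 50 alone or with quantile normalization, the mean of all probes, other detection filters and an intensity trend. Depth has no meaning for arrays, and their number limits the precision. P-values measure only the spread between these pools, and no group has a replicate pool. The residual of the limma model is thus the gap between the male and female CB-NP differences. A real difference in response between the sexes would count there as noise. Part of the variance used for each gene is drawn from the other genes. Tables were made with Python 3.11.15, pandas 2.3.3 and numpy 2.4.6.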

Additional observations from a re-analysis of the deposited data

Results flagged for a closer look

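Itgax, Flt3 and the dimmer Siglech probe were singled out because their CB-NP differences had opposite signs in the male and female pools. In each case the difference between the sexes was not tested, since there was 1 pool per group. For Itgax the male minus female gap was 0.48 on the log2 scale (0.32 and -0.16). For Flt3 it was 0.51 (0.36 and -0.16). For the dimmer Siglech probe it was -0.83 (-0.70 and 0.13), whereas the brighter Siglech probe was above 0 in both sexes (0.04 and 0.20).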

How the results depend on the processing

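The count of members at least 2-fold different was 0 in each of the 4 comparisons of pools and stayed 0 under every alternative except without a detection filter. That setting added Xcr1, a gene measured on no array, and gave a count of 1 for CB-NP against control in females and 1 for female against male in controls. The count of members called by limma for the shared CB-NP effect was 0 except with normexp background correction, where it was 1 (Zbtb46, -0.50, adjusted p 0.0047), and there limma called 612 of 14502 genes, or 4.22%, beside 12 in the setting reported. With median centring limma called 347 genes, with the intensity trend 381 and with both normexp and quantile normalization 54, and Zbtb46 had an adjusted p of 0.0554, 0.0546 and 0.0917. Quantile normalization, the authors' scaling and cyclic loess called 3, 2 and 4 genes, and 0 were called without a filter or with a filter on all 4 arrays. The shared CB-NP difference of Siglech turned to -0.084 with the mean of all probes, and the shared sex difference of Flt3 to -0.25. Within pairs, 10 of 224 member values under alternatives changed sign, in 6 of 28 results, none of them a Zbtb46 or Batf3 value. The cause was not tested. With median centring, the all-gene median moved by -0.11 for CB-NP in females and by 0.12 between the control pools. The members' median difference moved by less than the scanner error under each alternative, but its sign turned with the mean of all probes for control females against males (-0.0091) and with normexp for the exposed (0.0098). Counts of genes at least 2-fold different went from 50 higher and 72 lower to 11 and 24 in males with normexp, and from 93 and 61 to 20 and 30 in females. The authors' scaling gave 140 and 50 in females and 69 and 61 in males, and median centring 65 and 88 in females. No paired analysis was possible because each group is 1 pool and the labels carry no replicate numbers, so the sex term of the limma model is the only pairing, and no replicate could be left out. Signal over background limits Xcr1, Clec9a and the dimmer Flt3 probe.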
